A study of Arabidopsis thaliana with 4 samples.

Results

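Glutathione transferases of the tau and phi classes were examined across the 4 root libraries of the study. The members are the 41 loci named GSTU1 to GSTU28 (28 tau genes) and GSTF2 to GSTF14 (13 phi genes). They were taken by locus identifier, and not by their values, from a table of 33565 TAIR10 genes. The choice was made with earlier results of these data known. All 41 were in the table, and 38 of them (26 tau and 12 phi) had an FPKM above 0 in every library. FPKM is the number of sequenced fragments per kilobase of exon, scaled to the mapped fragments of the library, so levels can be compared between genes of different length. Total RNA came from whole roots of the *Arabidopsis thaliana* wild type Col-0. Plants were grown for 7 days on medium without hormone (control), or on the same medium with 10 μM methyl jasmonate (JA), with the cytokinin BAP at 50 nM (cytokinin), or with both hormones at these doses (JA/cytokinin). Each condition had 1 library, so every difference below compares a pair of libraries without replicates, and no p-values were computed.

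Glutathione transferases join the tripeptide glutathione to reactive or toxic compounds, and the conjugates are moved into the vacuole and broken down there. The tau and phi classes are the large plant classes of the family. They are known for herbicide detoxification and for responses to stress and hormones, and single members take part in the synthesis or transport of glucosinolates, camalexin and anthocyanins. Many members lie side by side on the chromosome as products of gene duplication. Of the 41, 29 belonged to 9 such tandem clusters and 12 stood alone.

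The libraries held between 98605532 and 115141812 reads, and the FPKM values implied that an estimated 87.3% to 91.3% of the read pairs were mapped. Intervals given below are 95% exact intervals on these estimated fragments and cover counting error only. Between the control and cytokinin libraries, genes of similar FPKM differed with a robust spread of 0.28 on the log2 scale in the highest of 10 equal groups of genes by mean FPKM, which held 16 of the members, and of 0.73 in the group that begins at 0.636 FPKM. All 6 root markers were present in every library, among them PYK10, an abundant root glucosidase, at 4563 to 6257 FPKM. They were not all steady. CASP1 was at 243 FPKM in control, 65.4 in JA, 218 in cytokinin and 83.8 in JA/cytokinin, and COBL9 at 25.6, 12.4, 38.7 and 17.5. These 2 were at least 2-fold lower in each library grown with JA than in its partner without, and 0 of the 6 were higher. The JA response gene JAZ10 stood at 2.59 FPKM in control, 449 in JA, 6.85 in cytokinin and 260 in JA/cytokinin. Of 3 cytokinin response genes, ARR15 was at least 2-fold higher in cytokinin than in control, while ARR5 was at 58.4 FPKM in control and 105 in cytokinin and ARR7 at 14.2 and 20.7. Shoot markers moved with the control library. All 11 were above 0 in control, 9 genes of leaf polarity and stomata summed to 14.0 FPKM there against 0.301 to 0.641 in the other libraries, and RBCS1A, a subunit of Rubisco, was at 1561 FPKM in control, 284 in JA, 1.99 in cytokinin and 0.920 in JA/cytokinin. Their part in the ratios to control was not tested. The ratio of JA/cytokinin to cytokinin does not use the control library, and both of its libraries were low in these markers.

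Levels among the members ranged from 0 to 2465 FPKM. The highest was GSTF9 (AT2G30860), which ranked first of the 41 in all 4 libraries with 948 FPKM in control, 2342 in JA, 1361 in cytokinin and 2465 in JA/cytokinin. Its tandem neighbor GSTF10 (AT2G30870) had 938, 1810, 856 and 1506 FPKM in the same order. Both were thus higher in the libraries grown with JA than in the others. Together they made up 36.7% of the summed FPKM of the 41 members in control and 49.4% in JA. The third highest by mean was GSTU19 (AT1G78380), an abundant enzyme that acts on herbicides, and it had the opposite order. It was at 860 FPKM in control, 521 in JA, 1023 in cytokinin and 741 in JA/cytokinin, so its share of the summed FPKM was 16.7% in control and 6.19% in JA.

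The other tau gene at a comparable level was GSTU26 (AT1G17190), with 185 FPKM in control, 766 in JA, 384 in cytokinin and 834 in JA/cytokinin. It passed GSTU19 in both libraries grown with JA and lay below it in the others. GSTU8 (AT3G09270) had 289, 273, 413 and 408 FPKM, and differed little with JA. GSTF8 (AT2G47730), whose promoter is widely used as a marker of root stress responses, had 494 FPKM in control, 219 in JA, 442 in cytokinin and 181 in JA/cytokinin. At the low end, GSTU15 (AT1G59670), GSTU21 (AT1G78360) and GSTF5 (AT1G02940) were listed at 0 in at least one library and did not exceed 0.374 FPKM in any. With GSTU12 and GSTF14 they were the 5 members below 3 FPKM in all libraries, and the other 36 exceeded 4 FPKM in at least one.

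**Figure D1:**
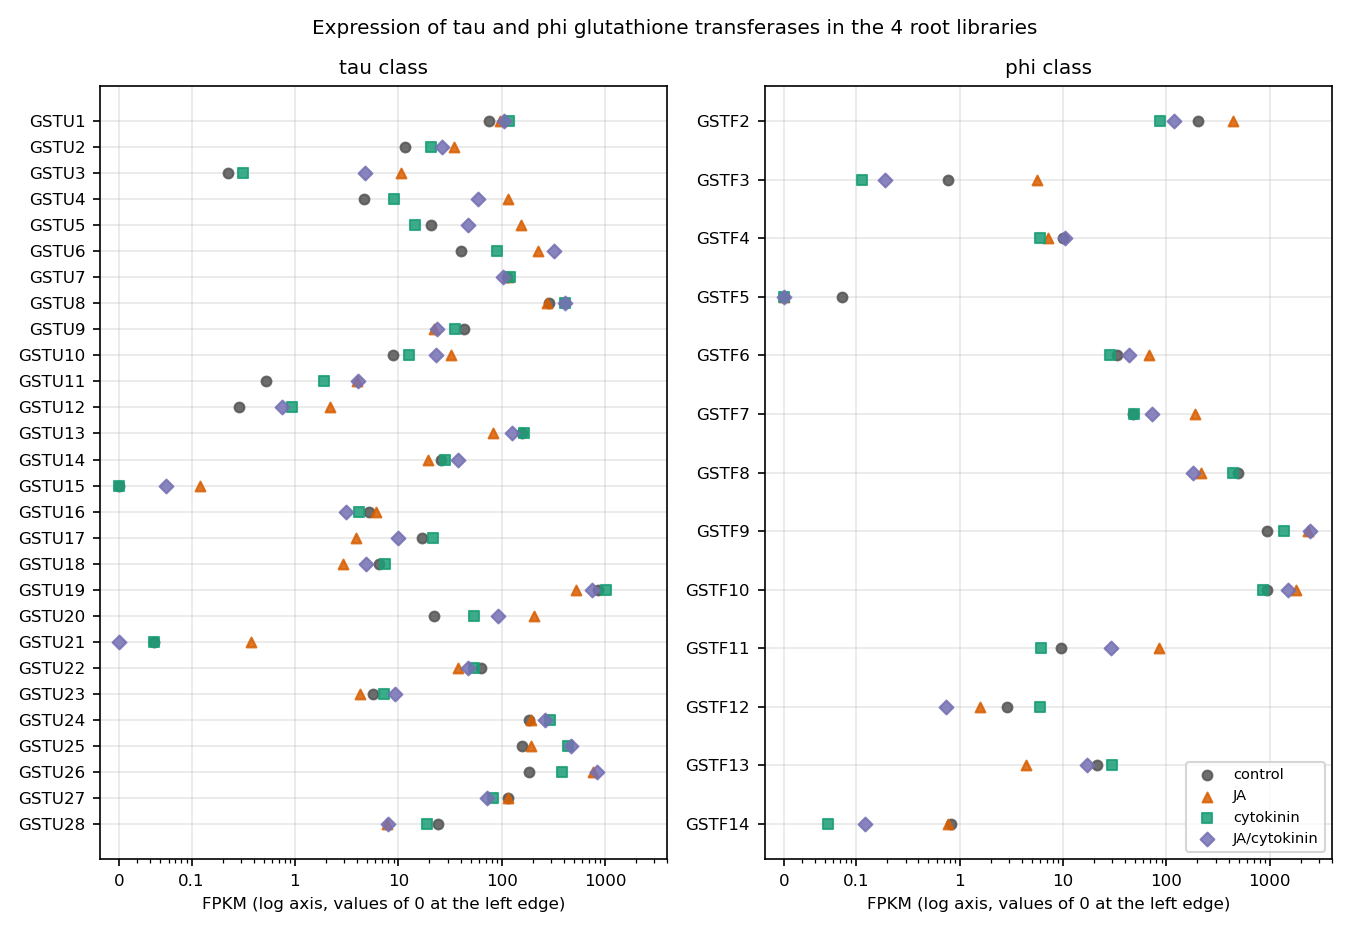
FPKM of each member on a log axis, tau genes on the left and phi genes on the right, with 1 symbol per library. GSTF9 and GSTF10 lie farthest right in the phi panel, GSTU3 spans 0.223 to 10.5 FPKM, and values of 0 are drawn at the left edge.

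Summed over each class, the tau genes had 2434 FPKM in control, 3241 in JA, 3423 in cytokinin and 3840 in JA/cytokinin. The phi genes had 2711, 5173, 2871 and 4445 FPKM. The phi sum was therefore high in both libraries grown with JA, while the tau sum was lowest in control and above it in all others. Phi genes made up 52.7% of the summed FPKM in control, 61.5% in JA, 45.6% in cytokinin and 53.7% in JA/cytokinin. GSTF9 and GSTF10 carried most of the phi sum, as 4152 of the 5173 FPKM in JA came from them. In whole roots a different share of cells that express a gene and a different amount of its RNA per cell cannot be told apart.

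**Figure D2:**
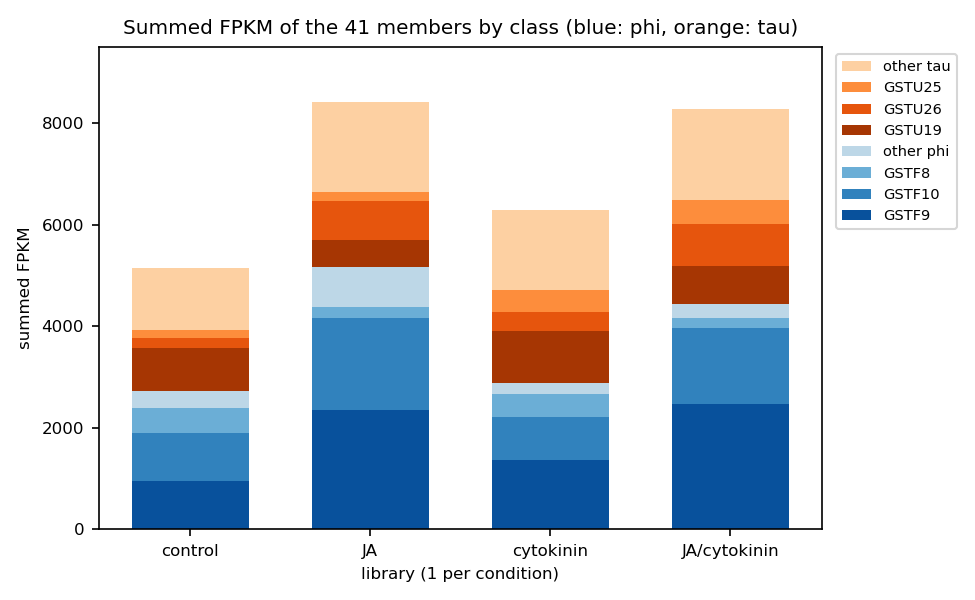
Summed FPKM of the 41 members in each library, stacked by gene or group (phi in blue, tau in orange). The total was 5145 in control, 8414 in JA, 6294 in cytokinin and 8285 in JA/cytokinin, and GSTF9 with GSTF10 made up 49.4% of it in JA.

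To see how the family differed with JA, the JA library was compared with control (JA effect without cytokinin) and the JA/cytokinin library with cytokinin (JA effect with cytokinin), with 2-fold as the threshold. Without cytokinin, 16 of the 38 measured members were higher by this threshold (42.1%) and 5 were lower (13.2%). Among all 22291 genes above 0 in every library, the background was 9.32% higher and 11.3% lower. The share of members that were higher was thus above the background, and the share that were lower was close to it. With cytokinin, 8 members were higher (21.1%) and 4 were lower (10.5%), against 10.2% and 7.8% of all genes. The 8 include GSTF14, which was at the floor of 3 fragments in cytokinin and whose bound is 1.86-fold, so 7 members (18.4%) were higher without it. Without cytokinin, 10 of 26 tau genes and 6 of 12 phi genes were higher, while 3 tau and 2 phi genes were lower. With cytokinin, 6 tau and 2 phi genes were higher (1 phi gene without GSTF14) and 2 of each class were lower. The median log2 ratio without cytokinin was 0.15 for tau and 0.98 for phi, against -0.02 over all genes. With cytokinin it was -0.09 and 0.68, against 0.04. With a pseudocount of 1 FPKM, GSTU18 and GSTF6 no longer passed 2-fold without cytokinin, and GSTU11 and GSTF14 with it. Over all 22291 genes the counts with this pseudocount were 1238 higher and 1315 lower without cytokinin, and 1078 and 833 with it.

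In both JA comparisons 10 members passed 2-fold in the same direction, which is 26.3% of the 38 measured, against 10.5% of all genes. Of these, 7 were higher (GSTU3, GSTU4, GSTU5, GSTU6, GSTU11, GSTU26 and GSTF11) and 3 lower (GSTU17, GSTU28 and GSTF8). The higher members were 18.4% of the 38, against 5.59% of all genes, and the lower members 7.89%, against 4.91%. With a pseudocount of 1 FPKM, GSTU11 fell below 2-fold in the comparison with cytokinin, at a log2 ratio of 0.79. No member passed 2-fold in opposite directions in the 2 comparisons, which was also rare among all genes, at 0.951%.

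Of the 7 higher members, 4 lie next to each other in the cluster of GSTU1 to GSTU7 on the minus strand of chromosome 2. GSTU3 (AT2G29470, chr2:12628422-12629640) had 0.223 FPKM in control, 10.5 in JA, 0.318 in cytokinin and 4.75 in JA/cytokinin. It was near the detection limit without JA, with an estimated 9 fragments in control and 13 in cytokinin, and its log2 ratio was 5.56 (interval 4.63 to 6.69) without cytokinin and 3.90 (3.10 to 4.83) with it. These were the highest ratios of any member in either comparison. GSTU4 (AT2G29460, chr2:12626478-12627891) had 4.70 FPKM in control, 116 in JA, 9.07 in cytokinin and 58.4 in JA/cytokinin. It was 24.7-fold higher with JA alone and 6.44-fold higher with JA on top of cytokinin. Its intervals on the log2 scale, 4.43 to 4.83 and 2.54 to 2.84, did not overlap.

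GSTU5 (AT2G29450, chr2:12624403-12625790) had 20.7 FPKM in control, 154 in JA, 14.4 in cytokinin and 46.8 in JA/cytokinin, a 7.45-fold and a 3.24-fold difference. GSTU6 (AT2G29440, chr2:12619630-12621231) had 40.1, 223, 91.0 and 317 FPKM, so it was 5.57-fold higher with JA alone and 3.49-fold higher with JA on top of cytokinin. GSTU6 was the member of this cluster that was highest in JA/cytokinin, while GSTU3, GSTU4 and GSTU5 were highest in JA alone.

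The genes at both ends of the cluster differed less. GSTU1 (AT2G29490) lay between 75.1 and 118 FPKM and GSTU7 (AT2G29420) between 102 and 121 FPKM over the 4 libraries. Their log2 ratios were 0.36 and 0.01 for JA without cytokinin and -0.17 and -0.25 with it. GSTU2 (AT2G29480) stood between, at 1.56 and 0.36. The cluster thus spanned 5.55 log2 units without cytokinin and 4.15 with it, the widest range of the 9 clusters in both comparisons. In control the order by level was GSTU7, GSTU1, GSTU6, GSTU5, GSTU2, GSTU4 and GSTU3, and in JA GSTU6 and GSTU5 were above GSTU4, GSTU7 and GSTU1.

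**Figure D3:**
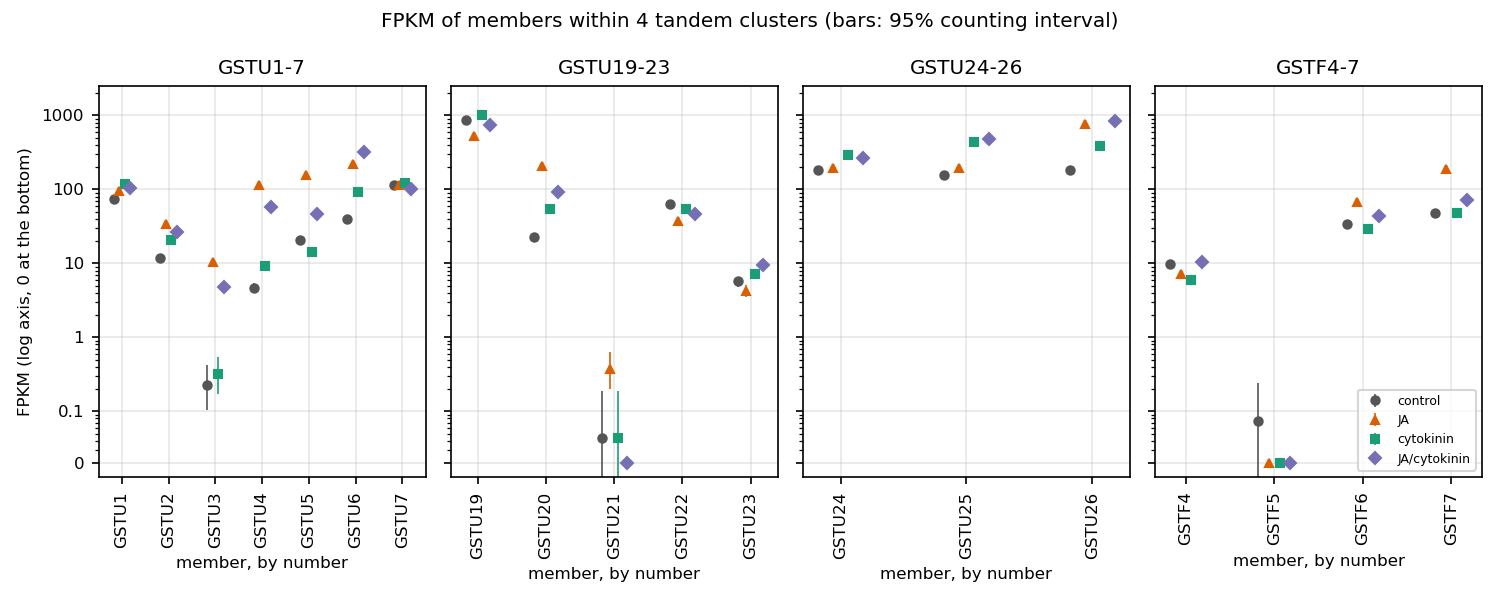
FPKM on a log axis with 95% counting intervals for the members of 4 tandem clusters, with 1 symbol per library and values of 0 drawn at the bottom without an interval. In the GSTU1-7 panel the symbols of GSTU7 coincide, between 102 and 121 FPKM, while those of GSTU4 spread from 4.70 to 116.

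The upstream sequences of members with the highest JA ratios are shown because they stand beside members with flat levels in one cluster. The window was the 300 bases before the annotated gene start in TAIR10.1, whose nuclear chromosomes are those of TAIR10, and was searched on both strands for TGACG, the core of sites bound by TGA factors, for CACGTG, known as the G-box, and for its variant CACATG. Capitals mark matches, and sequences are written in the direction of the gene, 5′ to 3′. Of the 5 members with the highest mean JA ratio (GSTU3, GSTU4, GSTF11, GSTU5 and GSTU6), those of GSTU5 and GSTF11 are not printed because their windows overlap another annotated gene.
GSTU3, chr2:12629641-12629940, minus strand: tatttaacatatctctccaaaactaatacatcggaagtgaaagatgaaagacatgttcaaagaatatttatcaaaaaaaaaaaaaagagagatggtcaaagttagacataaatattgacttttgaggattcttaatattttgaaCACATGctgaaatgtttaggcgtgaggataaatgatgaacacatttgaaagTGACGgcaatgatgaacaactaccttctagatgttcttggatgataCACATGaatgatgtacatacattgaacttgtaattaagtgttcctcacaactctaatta
GSTU4, chr2:12627892-12628191, minus strand: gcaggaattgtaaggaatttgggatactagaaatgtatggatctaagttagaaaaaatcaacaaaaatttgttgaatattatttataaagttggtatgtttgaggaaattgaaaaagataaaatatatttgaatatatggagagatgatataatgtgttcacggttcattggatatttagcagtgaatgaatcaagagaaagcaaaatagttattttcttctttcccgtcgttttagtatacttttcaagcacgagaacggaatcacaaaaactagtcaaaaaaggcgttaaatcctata
GSTU6, chr2:12621232-12621531, minus strand: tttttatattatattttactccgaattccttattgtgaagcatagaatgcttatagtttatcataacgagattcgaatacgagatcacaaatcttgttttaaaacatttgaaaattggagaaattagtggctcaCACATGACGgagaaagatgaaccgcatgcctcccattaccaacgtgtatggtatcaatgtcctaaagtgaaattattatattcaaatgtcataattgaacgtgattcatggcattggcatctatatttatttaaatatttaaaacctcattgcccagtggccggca

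The GSTU3 window held TGACG with its first base 105 bases before the gene start and CACATG 156 and 59 bases before it. In the GSTU6 window the TGACG at 162 bases and the CACATG at 166 bases overlapped. The GSTU4 window held none of the 3 motifs, although GSTU4 had the second highest JA ratio. GSTU1 and GSTU7, which did not pass 2-fold with JA, held TGACG at 2 and 3 places. The GSTU7 window overlaps another annotated gene. Over the 41 members, 17 windows held TGACG (41.5%, 13 tau and 4 phi), against 21.3% of 27443 protein-coding genes. CACGTG was in 3 members' windows (7.32%, against 7.09% of all) and CACATG in 8 (19.5%, against 13.1%). Among the 7 members higher in both JA comparisons, 5 held TGACG, 0 held CACGTG and 3 held CACATG. Among the 3 lower members 1 held TGACG, 1 held CACGTG and 0 held CACATG. Of the 31 other members, 11 held TGACG (35.5%), 2 held CACGTG and 5 held CACATG (16.1%). Windows that overlap another annotated gene were kept in these counts. A match is a run of letters and was not tied to any binding measurement here.

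Outside this cluster, GSTU26 and GSTF11 were at least 2-fold higher in both JA comparisons at 5 FPKM or more. GSTU26, at the levels given above, was 4.13-fold higher without cytokinin and 2.17-fold higher with it. GSTF11 (AT3G03190) is assigned in Arabidopsis to the synthesis of aliphatic glucosinolates. It had 9.58 FPKM in control, 85.3 in JA, 6.11 in cytokinin and 28.8 in JA/cytokinin, with log2 ratios of 3.16 (2.99 to 3.32) and 2.24 (2.03 to 2.46). All 934 exon bases of GSTF11 lie within annotated exons of NAC045 on the opposite strand. NAC045 had 0.499 to 1.23 FPKM, below GSTF11 in every library. GSTU11 (AT1G69930) passed 2-fold in both comparisons at lower levels, from 0.524 FPKM in control to 4.06 in JA/cytokinin.

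The 3 members that were lower in both JA comparisons come from both classes. GSTU17 (AT1G10370), also named ERD9 for its early response to dehydration, had 17.0 FPKM in control, 3.89 in JA, 21.5 in cytokinin and 9.85 in JA/cytokinin. It was 4.37-fold lower with JA alone and 2.19-fold lower with JA on top of cytokinin, and with cytokinin its interval reached from -1.29 to -0.97. Its neighbor GSTU18 (AT1G10360), which shares 71 exon bases with it, differed in the same direction, at log2 ratios of -1.16 and -0.60. GSTU28 (AT1G53680) had 24.0, 7.84, 19.0 and 8.04 FPKM, a 3.06-fold and a 2.36-fold lower level with JA. GSTF8 was 2.26-fold lower without cytokinin and 2.44-fold lower with it. GSTF8 was also the only one of these 10 members whose JA ratio was not smaller in size in the presence of cytokinin.

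Members that differed with JA without cytokinin had smaller ratios with it. All 16 members that were at least 2-fold higher in JA than in control had a smaller log2 ratio in the other JA comparison, as did 75.1% of the 2078 genes that were higher among all genes. The median of the 16 was 2.67 without cytokinin and 0.88 with it, against 1.63 and 1.23 for the 2078 genes. These genes were taken by their ratio without cytokinin, so part of such a drop is fixed by the choice. JAZ10 and JAZ1, both JA response genes, had log2 ratios of 7.44 and 3.21 without cytokinin and 5.24 and 1.90 with it. The widest drops among members at 5 FPKM or more were in GSTU20, GSTF3, GSTU4, GSTU3, and GSTF7. GSTU20 (AT1G78370), which binds the enzyme that makes the active jasmonate conjugate, was 9.15-fold higher with JA alone and 1.70-fold higher with JA on top of cytokinin. GSTF7 (AT1G02920) had log2 ratios of 1.99 without cytokinin and 0.58 with it.

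**Figure D4:**
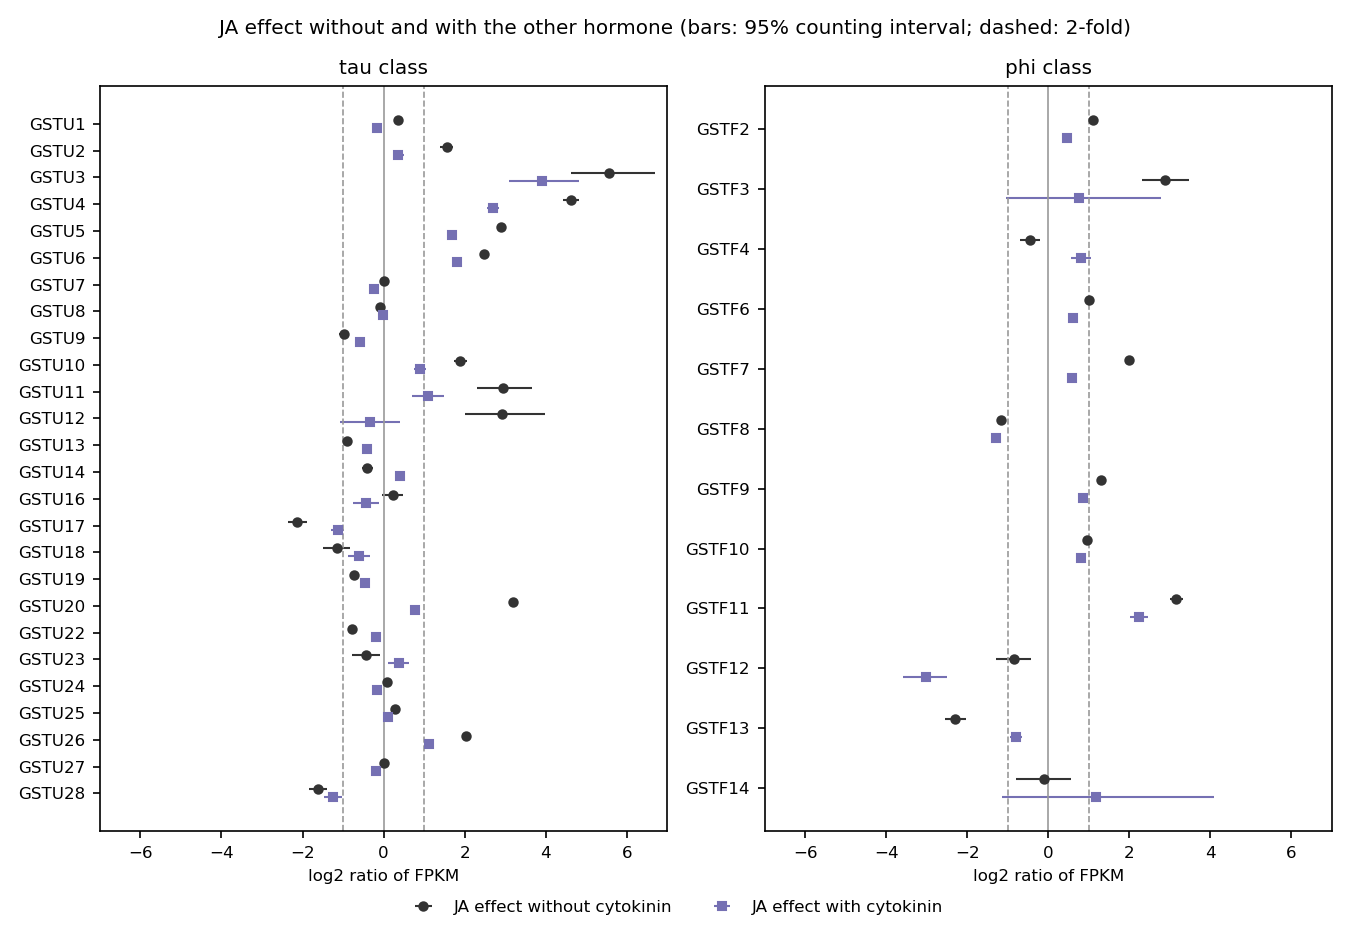
Log2 ratio of FPKM for JA without cytokinin (circles) and with cytokinin (squares), for the 38 measured members, with 95% counting intervals and dashed lines at 2-fold. GSTU3 and GSTU4 lie farthest right, GSTU20 moves from 3.19 to 0.77, and GSTF8 lies left of the 2-fold line in both.

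The cytokinin library was compared with control (cytokinin effect without JA), and JA/cytokinin with JA (cytokinin effect with JA). Without JA, 7 members were at least 2-fold higher (18.4%, against 5.19% of all genes) and 3 at least 2-fold lower (7.89%, against 9.77%). By class, 6 tau genes were higher and 0 lower, while 1 phi gene was higher and 3 were lower. With a pseudocount of 1 FPKM these became 4 and 0 tau genes and 0 and 1 phi genes. GSTU11, GSTU12, GSTF3, GSTF12 and GSTF14 no longer passed. Over all 22291 genes the counts fell as well, from 1157 to 419 higher and from 2177 to 1284 lower. The median log2 ratio was 0.43 over the tau genes and -0.20 over the phi genes, against 0.05 over all genes. With JA, 4 members were higher (10.5%, against 8.48%) and 10 lower (26.3%, against 9.1%). Here 3 tau genes were higher and 4 lower, while 1 phi gene was higher and 6 lower, with medians of 0.12 and -0.86 against 0.04. The phi median was below the tau median in both comparisons. No test of a difference between the classes was possible with 1 library per condition.

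GSTU25 (AT1G17180), an enzyme that conjugates the explosive trinitrotoluene in Arabidopsis, was the single measured member at least 2-fold higher in both cytokinin comparisons (2.63%, against 2.57% of all genes). It had 157 FPKM in control, 192 in JA, 439 in cytokinin and 473 in JA/cytokinin, which is 2.79-fold and 2.46-fold. It was high in both libraries grown with cytokinin and differed by less than 2-fold with JA. Its neighbors GSTU24 (AT1G17170) and GSTU26 had log2 ratios of 0.69 and 1.05 without JA, and 0.44 and 0.12 with it. In this cluster of 3, GSTU25 thus stood out in the cytokinin comparisons and GSTU26 in the JA comparisons, while GSTU24 lay between 183 and 295 FPKM.

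In both cytokinin comparisons 3 members were at least 2-fold lower, which is 7.89% of the 38 measured, against 5.59% of all genes. They were GSTF2, GSTF3 and GSTF14. GSTF2 (AT4G02520), a protein of the plasma membrane that binds indole compounds, had 204 FPKM in control, 441 in JA, 86.2 in cytokinin and 118 in JA/cytokinin. It was 2.37-fold lower without JA and 3.72-fold lower with it. GSTF3 (AT2G02930), the closest relative of GSTF2, had 0.769 FPKM in control, 5.61 in JA, 0.113 in cytokinin and 0.192 in JA/cytokinin. Both genes therefore had their highest value in JA and their lowest in cytokinin. The difference with JA present was 29.3-fold for GSTF3, with a log2 interval of -6.05 to -3.90, from an estimated 235 fragments in JA and 9 in JA/cytokinin. GSTF14 (AT1G49860) was at 0.833, 0.767, 0.0535 and 0.121 FPKM. It was at the floor of 3 fragments in cytokinin, and its control value was 12.8 times the FPKM of that floor. The log2 ratio of cytokinin to control had a counting interval of -6.62 to -2.17.

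GSTF2 and GSTF3 lie on different chromosomes, and their coding sequences were identical at 94.5% of 639 aligned bases. GSTF6 and GSTF7, which are neighbors on chromosome 1, were identical at 94.7% of 627 aligned bases. These were the most similar pairs of the 41 members, followed by GSTU13 with GSTU14 at 87.7% and GSTU1 with GSTU2 at 85.9% of aligned bases. The first 90 coding bases of each pair are shown because reads from such stretches can be assigned to either copy. Capitals mark the positions that differ within a pair, and all 4 genes lie on the minus strand of TAIR10.1.
GSTF2, chr4:1111442-1111531: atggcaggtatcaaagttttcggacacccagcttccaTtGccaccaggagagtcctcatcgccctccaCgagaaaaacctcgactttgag
GSTF3, chr2:852017-852106: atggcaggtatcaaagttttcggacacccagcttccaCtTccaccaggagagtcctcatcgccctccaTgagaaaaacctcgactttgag
GSTF6, chr1:662102-662191: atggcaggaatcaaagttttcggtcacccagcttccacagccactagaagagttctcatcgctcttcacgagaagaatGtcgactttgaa
GSTF7, chr1:659616-659705: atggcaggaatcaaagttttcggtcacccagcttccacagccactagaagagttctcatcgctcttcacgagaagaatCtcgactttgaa

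The pair GSTF2 and GSTF3 differed at 3 of the 90 bases shown and GSTF6 and GSTF7 at 1. How reads that match both copies were assigned is not given in the sources used here, so the levels of these 4 genes are uncertain. The GSTF2 level was between 78.6 and 760 times that of GSTF3 over the 4 libraries. GSTF6 (AT1G02930), known as a gene of camalexin synthesis, had 33.7 FPKM in control, 67.8 in JA, 28.7 in cytokinin and 43.7 in JA/cytokinin, and GSTF7 had 47.4, 188, 48.4 and 72.6 FPKM. Both were highest in JA. GSTF2 also overlaps TOC159 on the opposite strand at 890 of its 1471 exon bases, and TOC159 had 15.8 to 28.2 FPKM, below GSTF2 in every library.

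Cytokinin ratios of opposite direction were seen in 3 members. GSTU20 had 22.4 FPKM in control, 205 in JA, 53.6 in cytokinin and 91.2 in JA/cytokinin. It was thus 2.40-fold higher with cytokinin alone and 2.24-fold lower with cytokinin on top of JA. GSTU12 (AT1G69920) and GSTF12 (AT5G17220) showed the same order of signs at low levels, up to 2.19 and 6.03 FPKM. GSTF12 shares 108 of its 1096 exon bases with PSY on the opposite strand. PSY had 4.20 to 13.8 FPKM, above GSTF12 in every library, so the GSTF12 values are uncertain. Opposite ratios of at least 2-fold were found in 7.89% of the measured members and in 0.870% of all genes. The share of members rests on these 3 genes, and with a pseudocount of 1 FPKM neither ratio of GSTU12 or GSTF12 reached 2-fold. Among the other members that passed 2-fold in a single cytokinin comparison, GSTF13 (AT3G62760) had 21.5 FPKM in control, 4.40 in JA, 29.6 in cytokinin and 17.0 in JA/cytokinin, so it was low in JA alone.

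**Figure D5:**
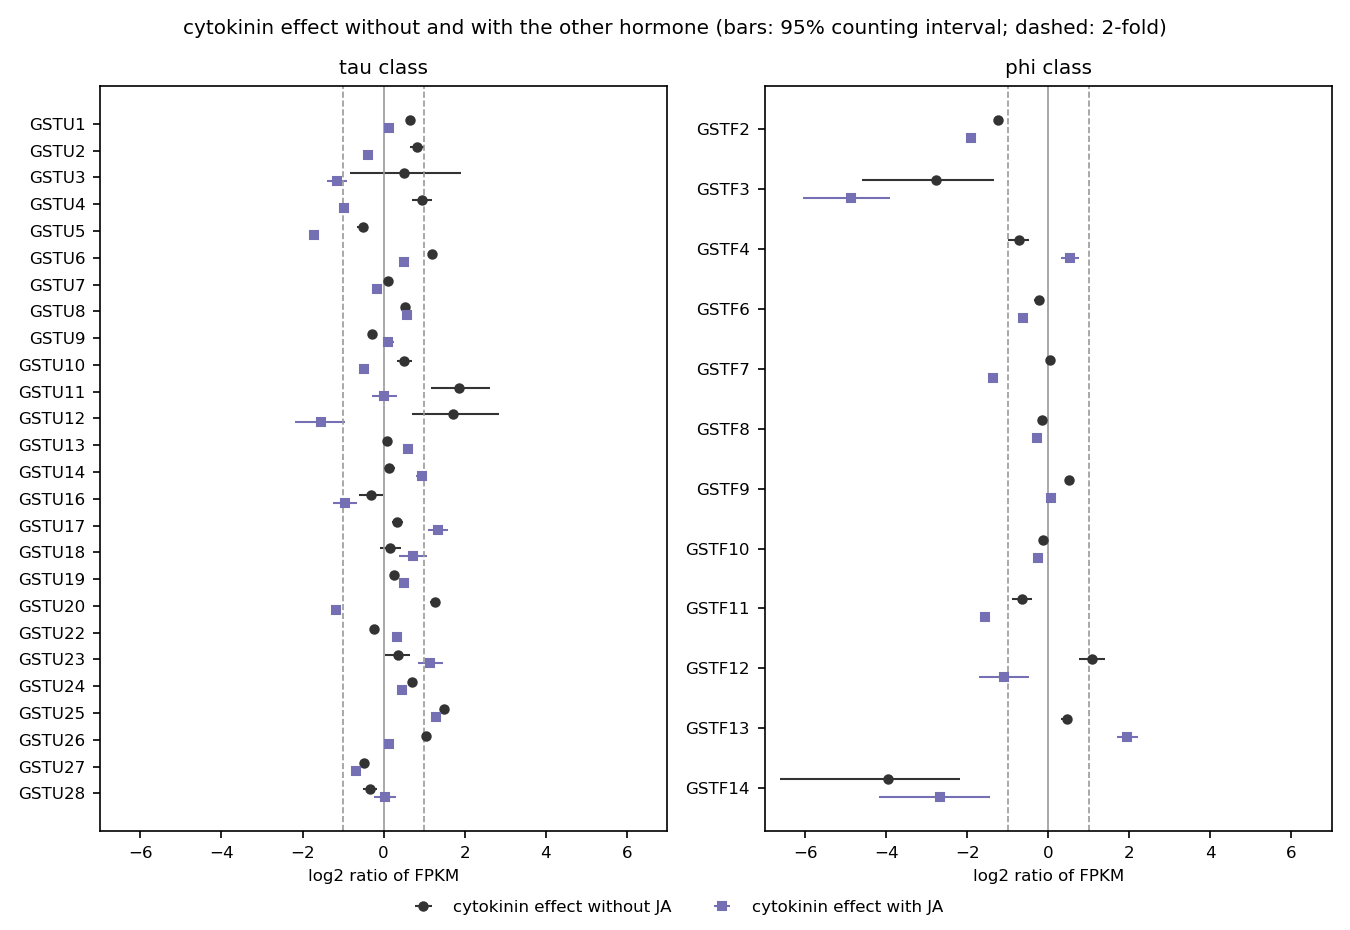
Log2 ratio of FPKM for cytokinin without JA (circles) and with JA (squares), for the 38 measured members, with 95% counting intervals and dashed lines at 2-fold. Both GSTU25 symbols lie right of the 2-fold line, GSTF2, GSTF3 and GSTF14 lie left of it, and GSTU20 has one symbol on each side.

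When JA/cytokinin was compared with control, 13 members were at least 2-fold higher (34.2%, against 11.4% of all genes) and 5 were at least 2-fold lower (13.2%, against 11.6%). By class, 11 of the 13 higher members were tau genes, which are 26 of the 38 measured, while 4 of the 5 lower members were phi genes. With a pseudocount of 1 FPKM, 10 tau genes were higher and 1 lower, and 2 phi genes were higher and 2 lower. GSTU12, GSTF3 and GSTF14 no longer passed. Over all 22291 genes the counts fell as well, from 2531 to 1382 higher and from 2588 to 1607 lower. The medians were 0.53 for tau, -0.13 for phi and 0.04 over all genes. GSTU6 was 7.92-fold higher and GSTU26 4.50-fold higher than in control, each at its highest level of the 4 libraries. The lower tau gene was GSTU28, at 2.98-fold. This comparison shares its control library with the JA and cytokinin comparisons made without the other hormone.

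Tandem neighbors often had unlike ratios. In the cluster of GSTU19 to GSTU23 on chromosome 1, GSTU20 was 9.15-fold higher with JA without cytokinin, whereas GSTU19, GSTU22 (AT1G78340) and GSTU23 (AT1G78320) had log2 ratios of -0.72, -0.77 and -0.43. GSTU21 was at the floor of 3 fragments in control and at 0.374 FPKM in JA, which is 4.18 times the FPKM of that floor. The log2 ratio of JA to control had a counting interval of 0.71 to 7.08. GSTU21 is outside the 38 measured members because it was listed at 0 in JA/cytokinin. GSTU11 and GSTU12 were alike without cytokinin, at 2.94 and 2.93, and parted with it, at 1.08 and -0.34. GSTU13 (AT1G27130), which takes part in indole glucosinolate metabolism, was at 82.8 to 166 FPKM and GSTU14 (AT1G27140) at 19.5 to 37.4 FPKM, and neither passed 2-fold in any comparison. In the cluster of GSTF4 to GSTF7, the JA ratios without cytokinin ran from -0.45 in GSTF4 (AT1G02950) to 1.99 in GSTF7 and with cytokinin only from 0.58 to 0.81. GSTF5 lies inside this cluster and was listed at 0 in all libraries except control. GSTU15, the partner of GSTU16 (AT1G59700), reached 0.120 FPKM, while GSTU16 had 3.13 to 6.07 FPKM.

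The remaining members are given by their range. GSTU9 (AT5G62480) had 22.1 to 43.6 FPKM and was lower with JA by less than 2-fold. GSTU10 (AT1G74590) had 8.79 to 32.5 FPKM, with JA log2 ratios of 1.89 without cytokinin and 0.90 with it. GSTU27 (AT3G43800) had 71.8 to 116 FPKM and passed 2-fold in no comparison.

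Genes that act around these enzymes were compared in the same way. The 4 genes of glutathione synthesis and recycling (GSH1, GSH2, GR1 and GR2) passed 2-fold in none of the JA and cytokinin comparisons, and 1 of them, GSH1, was at least 2-fold higher in JA/cytokinin than in control. GSH1, the first enzyme of glutathione synthesis, had 174 FPKM in control, 237 in JA, 327 in cytokinin and 419 in JA/cytokinin. Of 7 genes that break down glutathione or its conjugates, 2 were at least 2-fold higher in both JA comparisons and 0 were lower. They were GGP1, a peptidase that processes glutathione conjugates in glucosinolate and camalexin synthesis, with 121, 413, 173 and 428 FPKM, and GGCT2;1, with 2.56, 18.8, 7.67 and 52.6 FPKM. Both were higher in each library grown with JA than in its partner without. Of 3 vacuolar transporters of conjugates, 0 were higher with JA, and ABCC3 was lower with JA on top of cytokinin at a log2 ratio of -1.12.

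Of 12 genes in other classes of the family, 1 was at least 2-fold higher with JA in both comparisons. It was DHAR1, a dehydroascorbate reductase, with 124 FPKM in control, 436 in JA, 148 in cytokinin and 354 in JA/cytokinin. GSTL1, of the lambda class, had 122, 19.4, 38.4 and 21.7 FPKM and was highest in the control library. Each of the 11 shoot markers was also highest there, and a link to GSTL1 was not tested. The factors TGA2, TGA5 and TGA6 and their partner SCL14, which are known to drive detoxification genes in Arabidopsis, passed 2-fold in no comparison and lay between 7.92 and 25.1 FPKM. Of 10 other genes of the xenobiotic response, 0 were higher with JA in either comparison, while 1 was lower without cytokinin and 3 with it. OPR1, a relative of the jasmonate synthesis enzyme OPR3, had 281, 62.5, 306 and 92.3 FPKM, lower in both libraries grown with JA.

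Of 11 core genes of glucosinolate synthesis, 6 were at least 2-fold higher with JA without cytokinin and 2 with it, and 0 were lower. CYP83A1, of the aliphatic branch, had 23.2 FPKM in control, 89.7 in JA, 12.5 in cytokinin and 23.9 in JA/cytokinin, so it shared with GSTF11 its highest value in JA and its lowest in cytokinin. CYP79B2, of the indole branch, had 43.6, 89.1, 106 and 256 FPKM and was highest in JA/cytokinin. GSTF12, also named TT19, carries anthocyanins to the vacuole. It had 2.85 FPKM in control, 1.57 in JA, 6.03 in cytokinin and 0.742 in JA/cytokinin, while DFR and LDOX, enzymes of anthocyanin synthesis, were at or below 0.148 FPKM in all libraries. The camalexin genes CYP71A13 and PAD3 reached 2.13 and 15.5 FPKM, in JA and in JA/cytokinin respectively, and GSTF6 was highest in JA.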

How the data were processed

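The authors grew Col-0 on medium with or without the hormones, made 1 polyA-selected library per condition from root RNA and sequenced it from both ends. They deposited FPKM per TAIR10 gene, calculated with Cufflinks. The submitters' processing notes name Bowtie and TAIR10. Versions, options, strand setting and the treatment of reads that match several genes are not given in the sources used here. The number of reads sequenced was taken from the deposited counts per library.

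The members and gene lists were chosen with earlier results of these data known. Ratios used FPKM as deposited, with no pseudocount, over the 22291 genes above 0 in all 4 libraries, and 2-fold as the threshold, as the unit and the single libraries allowed no test. Groups came from the sample labels. Depth was estimated from 17240 genes with 1 transcript, for which FPKM times the exon length (TAIR10.1) less a fragment length of 160 was searched for the size of 1 fragment. Intervals are exact Poisson intervals for levels and exact conditional binomial intervals for ratios, at the 95% level. A gene with 3 or fewer fragments was taken as at the floor. These intervals leave out any error from amplification or between plants. The steps were tested on simulated data.

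All members are named. Those given by library reached 5 FPKM in some library and passed 2-fold the same way in both JA or both cytokinin comparisons, or were among the 3 highest of their class by mean FPKM. Values of GSTU20, GSTF6, GSTF7, GSTF12, GSTF13 and GSTF14 by library were added after they were seen. The listed genes were those of glutathione supply, breakdown and transport, other classes of the family, TGA and SCL14 regulators, xenobiotic response, glucosinolate, anthocyanin and camalexin synthesis, and root, shoot, JA and cytokinin markers. Coding sequences were aligned globally, and upstream windows were read from TAIR10.1, in which all 41 loci were found. Protein sequences were not used here. Scripts ran on Python 3.11.15 with Biopython 1.88, scipy 1.17.1, pandas 2.3.3, numpy 2.4.6 and matplotlib 3.10.9. Alternatives were a pseudocount of 1, a minimum of 1 FPKM in some library, 2 rescalings and a 3-fold threshold.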

Additional observations from a re-analysis of the deposited data

Results flagged for a closer look

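In 3 members the cytokinin ratio had opposite directions without and with JA, each by at least 2-fold and each with a counting interval that leaves out a ratio of 1. The ratio with JA less the ratio without it was -3.27 on the log2 scale for GSTU12, -2.43 for GSTU20 and -2.17 for GSTF12. The difference was not tested, as each condition had 1 library. GSTU20 was measured at 22.4 to 205 FPKM, while GSTU12 did not exceed 2.19 and GSTF12 did not exceed 6.03 FPKM. With a pseudocount of 1 FPKM, neither ratio of GSTU12 or of GSTF12 reached 2-fold.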

How the results depend on the processing

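No paired analysis was possible because there was a single library for every condition, which also leaves no replicate to omit. Rescaling by the median ratio (factors of 0.994 to 1.02) or by a trimmed mean (0.989 to 1.03) kept all 75 member ratios past 2-fold and added 1 and 2, and moved no count by more than 1.5 times. The filter of 1 FPKM removed GSTF14 and moved no count by more than 1.5 times. With a pseudocount of 1, 59 of the 75 remained past 2-fold and none changed direction. Counts for cytokinin without JA became 4 higher and 1 lower, and for both hormones 3 lower, as low genes were drawn toward 0. Over all 22291 genes they became 419 higher and 1284 lower for cytokinin without JA, and 1607 lower for both hormones. With a 3-fold threshold the counts became 3 lower for JA without cytokinin, and 5 higher and 1 lower for JA with cytokinin. For cytokinin they became 2 higher without JA, and 1 higher and 4 lower with it. For both hormones they became 8 higher and 3 lower. Among all 22291 genes at 3-fold, 1297 were lower for JA without cytokinin, and 1118 higher and 735 lower for JA with cytokinin. For cytokinin 390 of all genes were higher without JA, and 928 were higher and 1086 lower with it. For both hormones 1332 of all genes were higher and 1468 lower. Leaving out calls whose bound at the floor is under 2-fold, chosen after seeing the data, removed GSTF14 from the members higher for JA with cytokinin (7 in place of 8) and changed no other count. The class medians moved by less than the spread of genes of similar FPKM (0.28 on the log2 scale) under the pseudocount, the filter and both rescalings. Some medians are smaller in size than this spread, such as -0.09 for tau and JA with cytokinin. For these the limit cannot show that the sign was kept. Members under about 1 FPKM rest on few fragments, and near-identical or overlapping genes on read assignment that was not checked here.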

Other observations

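The members also differed in how far they ranged. GSTF3 and GSTU3 had the widest ratio of highest to lowest FPKM among the 38 measured members, 49.4 and 47.1, and GSTU4 followed at 24.7. GSTU7 had the narrowest, 1.19, although it lies in the same cluster as GSTU3 and GSTU4. Among members with a mean above 100 FPKM, GSTU6 ranged most, at 7.92, and stood at rank 17 of 41 in control and at rank 7 in JA and in JA/cytokinin. GSTU4 stood at rank 32 in control and 14 in JA. The coding region had 2 exons in every tau gene and in GSTF3, and 3 to 5 in the other phi genes.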
